A study of Mus musculus with 48 samples.

Results

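Midbrain of mice lacking the RNA-binding protein TIA1 was compared with midbrain of wild type (WT) mice at the age of 3 months, by transcriptome arrays. The comparison holds 6 of the 48 arrays of the series, chosen by their labels for tissue, genotype and age, namely 3 Tia1 knockout (KO) arrays (mice 122970, 122972 and 122973) and 3 WT arrays (mice 1, 2 and 3). Cerebellum, spinal cord and liver were profiled at the same age under the same mouse numbers, and all 4 tissues again at 6 months. Every mouse is labelled with the genetic background C57Bl/6, and neither genotype received a treatment. The KO allele is constitutive, so every cell type and every age lacks the protein, and the study's methods describe KO mice from homozygous matings beside purchased C57BL6/J controls, whereas the series' design text calls the controls littermates. Each array read total RNA of dissected midbrain from 1 mouse, and each value is a log2 expression value of 1 probe set (a group of short probes for 1 transcript), so that a difference of 1 is a 2-fold change. Negative folds denote lower expression in KO midbrain.

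TIA1 binds uridine-rich and AU-rich stretches of RNA. In the nucleus it helps U1 snRNP to recognise weak splice sites, and in the cytoplasm it silences the translation of bound mRNAs and joins stress granules, the condensates that hold stalled translation complexes. Its close relative TIAL1 has overlapping targets. Midbrain holds the dopaminergic neurons of the substantia nigra and ventral tegmental area beside many other neurons, glia and vessels, so that a change in bulk RNA may stem from fewer cells of a type or from less RNA per cell, which cannot be told apart here.

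The 6 arrays correlated with each other at 0.996 or higher, and the medians of the arrays lay between 4.24 and 4.32. The male transcript Kdm5d was well above the level of Xist on every array, at 5.57 to 5.96 against 2.66 to 3.22. Midbrain markers were present, since the dopamine-synthesising enzyme Th read 7.04, 6.78 and 7.04 in KO and 6.90, 6.78 and 7.09 in WT mice. A library that stood apart was KO 122973, in which Ttr, the transthyretin of choroid plexus, read 11.48 against 6.51 and 6.76 in the other KO mice and 5.76, 5.85 and 6.61 in WT mice. Pituitary growth hormone, Gh, ranged over 8.87, 7.18 and 2.38 in KO and 9.66, 3.00 and 7.02 in WT mice, with no order by genotype. The WT mice of 3 months also stood apart from the WT mice of 6 months in a set of genes, which is described with the comparison of ages.

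Of 45037 probe sets, 109 differed between KO and WT midbrain (limma over all 48 arrays, Benjamini-Hochberg adjusted p under 0.05), which is 0.242% of those tested. KO midbrain was higher in 49 of them (0.109%) and lower in 60 (0.133%), and 2940 probe sets had an unadjusted p under 0.05. The 82 called probe sets with 1 gene symbol stood for 72 genes, 34 higher and 39 lower, with Tia1 in both counts. The changes were mostly moderate, as 21 of the 109 reached 2-fold, and the median over all probe sets was -0.01 on the log2 scale. KO and WT arrays did not overlap in any called probe set, as was the case in 22.4% of all probe sets, and 33 called probe sets had a mean below 5, a dim range that holds 25832 of the probe sets tested. With 3 against 3 arrays, an exact permutation test of a single value cannot go below 0.1, so calls rest on the spread shared over all groups. Leaving out 1 array at a time gave 53 to 64 calls, the lowest without WT 1 and the highest without WT 2, and 36 probe sets of 23 genes were called each time.

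**Figure D1:**
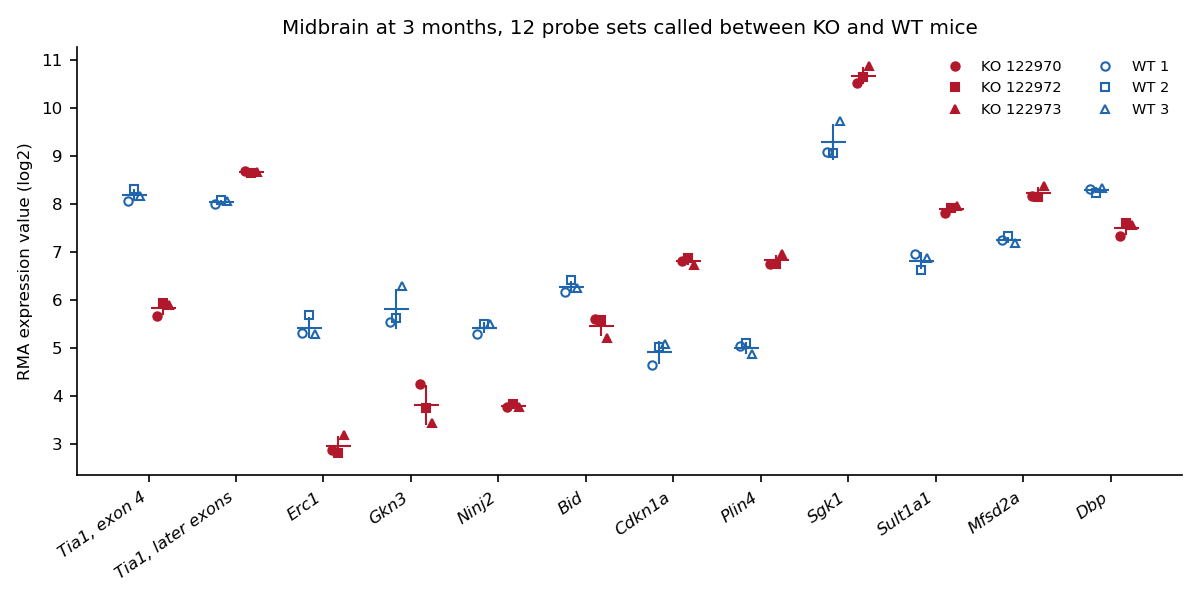
RMA expression (log2) of 12 called probe sets on each midbrain array at 3 months. Filled red symbols are KO mice, open blue symbols are WT mice, and bars give the group mean and its SD (n = 3). The exon 4 probe set of Tia1 lay at 5.66 to 5.93 in KO and 8.06 to 8.31 in WT mice, and the groups did not overlap in any of the 12.

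The targeted gene was read by 6 probe sets on chromosome 6. The probe set at exon 4, where the allele was disrupted, read 5.66, 5.93 and 5.89 in KO mice and 8.06, 8.31 and 8.17 in WT mice. KO midbrain was thus lower by -5.10-fold (log2 -2.35, SE 0.13, limma adjusted p = 5.15e-16). Probe sets at exons 9 to 11 of Tia1 showed the opposite. The one with the largest rise read 8.67, 8.63 and 8.66 in KO and 7.99, 8.08 and 8.05 in WT mice, 1.53-fold higher (limma adjusted p = 3.80e-04), and another was 1.36-fold higher (limma adjusted p = 3.59e-04). A further pair of Tia1 probe sets there did not overlap between genotypes but missed the threshold, at 1.28-fold (limma adjusted p = 0.393) and 1.15-fold (limma adjusted p = 0.952). A dim Tia1 probe set of unassigned exon read 3.36 to 3.54 in KO and 3.09 to 3.38 in WT mice, with overlap. Signal from the later exons was thus present in KO midbrain above the WT level, and the exon 4 values went with the labels of all 6 arrays.

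Erc1, Gkn3 and Ninj2, the named genes with the strongest losses beside Tia1, lay on its own chromosome. Erc1, a scaffold of presynaptic active zones and vesicle docking sites, had a probe set at 2.87, 2.81 and 3.18 in KO and 5.30, 5.68 and 5.28 in WT mice, a fall of -5.53-fold (SE 0.13 on the log2 scale, limma adjusted p = 1.86e-16). The brightest Erc1 probe set gave 6.42, 6.56 and 6.58 in KO and 6.34, 6.46 and 6.47 in WT mice, which overlap, at 1.07-fold. The loss was thus seen by 1 probe set of Erc1, while the remaining ones read 1.13-fold and -1.08-fold. Ninj2, a nearby gene for an adhesion molecule that nerve injury induces, read 3.76, 3.82 and 3.76 in KO against 5.28, 5.49 and 5.49 in WT mice, -3.11-fold with limma adjusted p = 4.63e-13. Both probe sets of Gkn3, a gastrokine, fell. The brighter gave 4.24, 3.75 and 3.43 in KO and 5.54, 5.61 and 6.29 in WT mice, -4.02-fold with limma adjusted p = 7.39e-06, with an SD of 0.41 in each group. Bid, which links death receptors to mitochondrial apoptosis, read 5.59, 5.59 and 5.2 in KO and 6.16, 6.41 and 6.24 in WT mice, -1.75-fold with limma adjusted p = 2.69e-05. Bid lies on the same chromosome, but fell less than the GABA-A receptor gene Gabra2 of chromosome 5 (-2.48-fold).

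Chromosome 6 held 15 of the 72 called genes, or 20.8%, and 5.56% of the array's genes. Among its 941 array genes 1.59% were called, and every other chromosome had 0% to 0.701%. Of these genes 13 were lower and 3 higher in KO midbrain, with Tia1 in both counts. Counted in array genes, Pcyox1, a prenylcysteine oxidase, lay next to Tia1 and fell in both of its probe sets, from 8.89, 8.85 and 8.84 in WT to 8.50, 8.60 and 8.49 in KO mice in the dimmer, which is -1.26-fold. Within 50 array genes on either side, 6 of 101 genes were called, namely Tia1, Pcyox1, the iron-sulfur scaffold gene Nfu1 (-1.27-fold), the acetyltransferase family gene Nat8f5 (-1.98-fold), Gkn3 and the mitochondrial deoxyguanosine kinase gene Dguok (-1.46-fold). A second group lay between 197 and 221 array genes away. It held Zfp9 (-1.44-fold), the decapping factor gene Dcp1b (1.76-fold), the adiponectin receptor gene Adipor2 (1.39-fold), Erc1, 3110021A11Rik (-1.97-fold), Ninj2 and Bid. The adhesion gene Chl1 at 115 array genes was lower by -1.87-fold in a dim probe set and read 1.00-fold in its bright one, and the E3 ligase gene Mkrn1 lay farthest away, on the other side. Adipor2, Pcyox1 and Zfp9 lost their calls without any 1 of the 6 arrays, and Dcp1b read -1.06-fold in its brightest probe set.

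**Figure D2:**
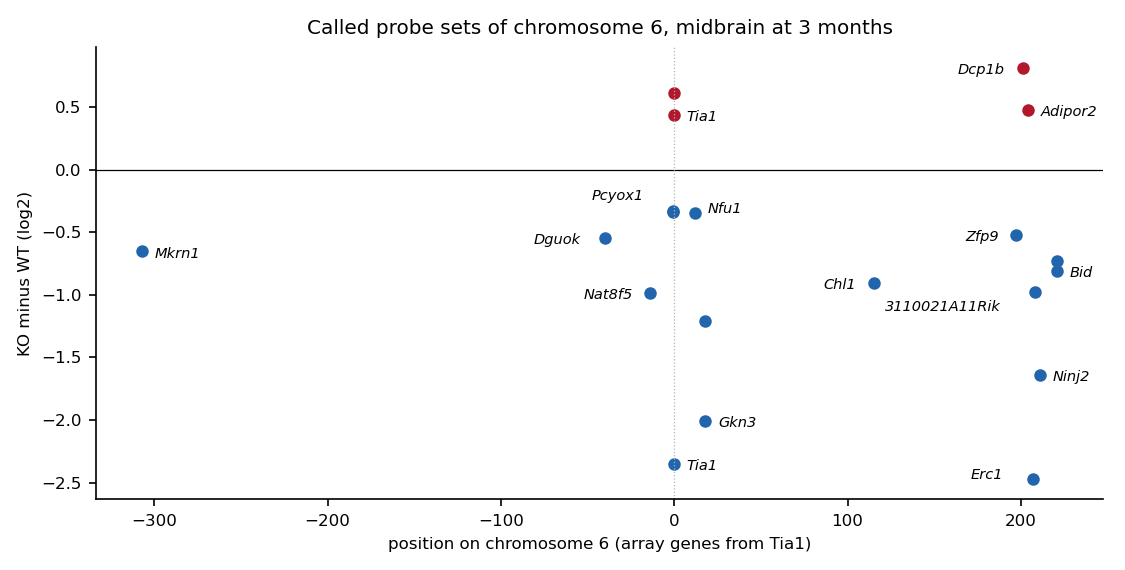
Log2 difference, KO minus WT, of the called probe sets on chromosome 6 against the position of their gene, counted in array genes from Tia1. Red is higher and blue is lower in KO midbrain. One cluster lies around Tia1 itself and another between 197 and 221 array genes from it, with Erc1 the lowest at -2.47.

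The largest rises were those of Cdkn1a and Plin4, both on chromosome 17. Cdkn1a encodes p21, the inhibitor of cyclin-dependent kinases. It read 6.81, 6.86 and 6.72 in KO and 4.63, 5.02 and 5.07 in WT mice by its stronger probe set, 3.70-fold higher with limma adjusted p = 2.86e-05, and 3.06-fold higher by its second. Plin4, a coat protein of lipid droplets, read 6.75, 6.75 and 6.96 in KO and 5.03, 5.10 and 4.87 in WT mice, 3.53-fold higher with limma adjusted p = 1.47e-05. Both genes were clearly apart between genotypes on every array, with KO 122973 the lowest KO array for Cdkn1a and the highest for Plin4. Mfsd2a, the transporter that carries lysophosphatidylcholine with docosahexaenoic acid across the blood-brain barrier, read 8.16, 8.14 and 8.36 in KO and 7.23, 7.32 and 7.18 in WT mice, 1.96-fold higher with limma adjusted p = 9.14e-04.

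Plin4 and Mfsd2a were the 2 of 24 measured genes of the lipid droplet and lipolysis list that changed, and its median was 0.00 on the log2 scale. Each list gene was read by its brightest probe set, and of all 17097 genes read in this way 0.339% were called and 7.0% had an unadjusted p under 0.05. The lipase inhibitor gene Angptl4 read 5.38, 5.54 and 5.44 in KO and 4.51, 4.71 and 4.75 in WT mice, which did not overlap, and fell just short at 1.74-fold. Other lists of lipid metabolism held no call. In the cholesterol synthesis and uptake list 15 of 16 genes were lower in KO, with a median of -0.17, but none passed limma's adjusted threshold and 5 had an unadjusted p under 0.05. Fatty acid oxidation had 0 calls of 22 genes with 3 at an unadjusted p under 0.05, and fatty acid and triglyceride synthesis 0 of 16, with 0 at that level.

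Of 27 measured genes of the cell cycle 3 rose and 9 had an unadjusted p under 0.05, against 0.339% and 7.0% of all genes, while 17 were lower in KO and the median was -0.05. Beside Cdkn1a these were Tedc2, a centriolar tubulin complex subunit, which read 6.75, 6.83 and 6.85 in KO and 5.82, 5.93 and 5.65 in WT mice (2.01-fold, limma adjusted p = 1.47e-05), and Nde1, a centrosomal partner of dynein, at 1.52-fold, whose call was lost without any 1 of the 6 arrays. Tedc2 and Plin4 are on the same chromosome as Cdkn1a, where Zfp160 (-1.50-fold) was the other called gene, and lost its call without any 1 array. Of the 27 cell cycle genes, each read by its brightest probe set, 12 had a mean below 5, as did 25832 of all 45037 probe sets. In the p53 and apoptosis list, which leaves out Cdkn1a, 1 of 22 genes changed, and that was Bid.

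Glucocorticoid-responsive genes contributed more calls than any other list. As for every list, the members were chosen with earlier results of these data known, so the counts are a description and no test. Cdkn1a and Plin4 were counted in the cell cycle and lipid droplet lists as well. The glucocorticoid receptor, encoded by Nr3c1, is a nuclear receptor that moves to the nucleus on binding corticosterone and activates genes through a palindromic response element. Of 27 measured target and receptor genes 8 rose and 1 fell, 16 had an unadjusted p under 0.05 (against 0.339% and 7.0% of all genes), and 24 were higher in KO midbrain. Their median was 0.51 on the log2 scale against -0.01 over all probe sets. Averaged over the list, the arrays read 7.72, 7.73 and 7.84 in KO and 7.12, 7.19 and 7.31 in WT mice, so the groups did not overlap. Leaving out 1 array at a time gave 4 to 6 calls in place of 9, with 4 without WT 1, KO 122972 or KO 122973, and 5 without WT 2. The rise of Cdkn1a, Plin4, Sgk1 and Sult1a1 was called each time.

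Sgk1, a kinase that glucocorticoids induce and that regulates ion channels, read 10.51, 10.64 and 10.86 in KO and 9.08, 9.05 and 9.71 in WT mice. It was 2.61-fold higher (limma adjusted p = 1.09e-04), and WT 3 was the highest WT array. The same array was the highest in WT for Arrdc2, an arrestin domain gene, which read 6.51, 6.73 and 6.73 in KO and 5.34, 5.39 and 5.73 in WT mice (2.25-fold, limma adjusted p = 0.0396), and for Nfkbia, the inhibitor of NF-kappa B, at 1.69-fold. The call of Arrdc2 was lost without any 1 of the 6 arrays. Sult1a1, a phenol sulfotransferase, read 7.81, 7.90 and 7.96 in KO and 6.96, 6.62 and 6.86 in WT mice, 2.11-fold higher with limma adjusted p = 1.43e-05. Tsc22d3, which encodes the glucocorticoid-induced leucine zipper protein, was 1.46-fold higher (limma adjusted p = 0.0175). Errfi1, a feedback inhibitor of the EGF receptor, was 1.31-fold higher (limma adjusted p = 0.0106). With 1 array left out, the call of Tsc22d3 held in 1 of 6 fits, and those of Errfi1 and Nfkbia in 2 of 6 each. Errfi1 also lost its call with the 6 arrays fitted alone (limma adjusted p = 0.0729).

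The receptor itself was the member that fell. Nr3c1 read 8.59, 8.74 and 8.74 in KO and 9.05, 8.97 and 9.01 in WT mice, a small difference of -1.24-fold with limma adjusted p = 0.0287 that was lost without any 1 of the 6 arrays. Fkbp5, the receptor's co-chaperone, read 7.61, 7.77 and 7.57 in KO and 7.07, 7.01 and 7.09 in WT mice, without overlap, but missed the threshold at 1.51-fold (limma adjusted p = 0.379). Hsd11b1, which regenerates active corticosterone inside cells and was not in the list, rose 1.29-fold (limma adjusted p = 0.0127). That call held in 2 of the 6 fits with 1 array left out. It was lost with the 6 arrays fitted alone (limma adjusted p = 0.0709) and with the 12 midbrain arrays (limma adjusted p = 0.0723). At 3 months Hsd11b1 read 9.30 to 9.42 in KO and 9.46 to 9.53 in WT cerebellum. In spinal cord it read 8.85 to 8.90 in KO and 8.28 to 8.38 in WT mice.

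**Figure D3:**
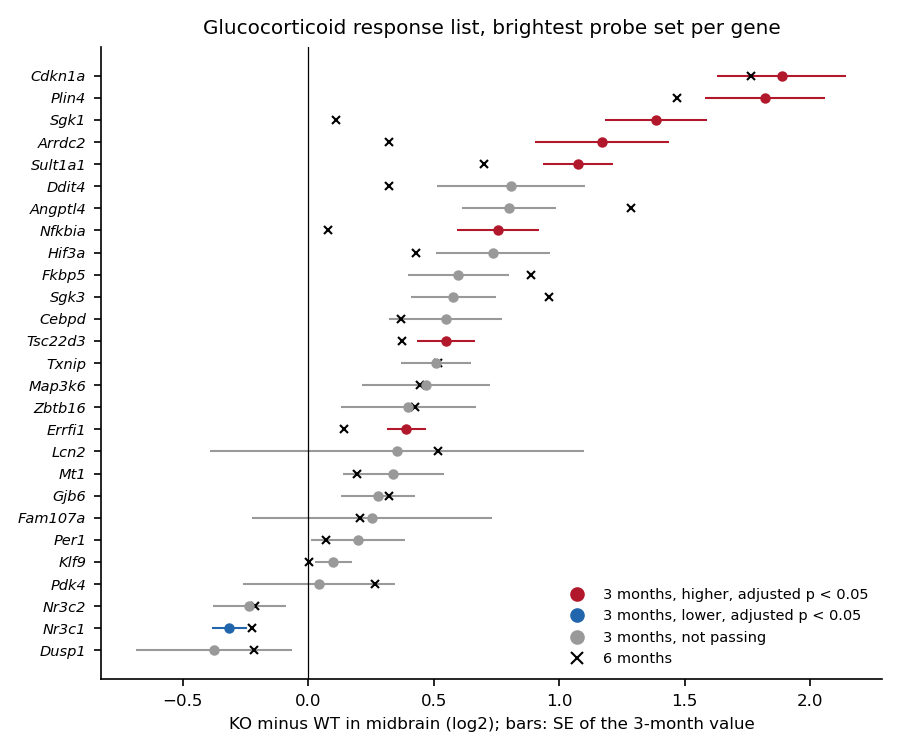
Log2 difference, KO minus WT, of the 27 measured genes of the glucocorticoid response list. Dots give midbrain at 3 months with the SE (red higher, blue lower, grey not passing), and crosses give the separate mice of 6 months. At 3 months 24 of 27 dots lie right of 0, and the cross of Sgk1 lies at 0.11 against its dot at 1.39.

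Promoters of the list were searched for the response element, since 24 of its 27 genes were higher in KO midbrain. The letters GNACANNNTGTNC (both strands, the inverted repeat read by the receptor) occurred in 5 of the 22 list genes with a promoter sequence (22.7%) and in 145 of all 27025 genes with one (0.537%), each promoter covering 250 bases before to 50 after a transcript start in RefSeq GRCm38.p6. They are shown because they lie in the genes described here, with the element in capitals and 20 bases on either side, 5′ to 3′ along the gene's strand.
Sgk1 (chr10:21993682-21993734, plus strand): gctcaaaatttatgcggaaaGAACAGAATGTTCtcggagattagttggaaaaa
Txnip (chr3:96557765-96557817, plus strand): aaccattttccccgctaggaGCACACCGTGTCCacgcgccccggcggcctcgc
Map3k6 (chr4:133240617-133240669, plus strand): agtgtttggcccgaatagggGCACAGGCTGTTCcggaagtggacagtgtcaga
Mt1 (chr8:94178975-94179027, plus strand): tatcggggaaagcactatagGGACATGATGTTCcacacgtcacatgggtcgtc
Fam107a (chr14:8309865-8309917, minus strand): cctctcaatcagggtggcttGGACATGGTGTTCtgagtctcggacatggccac
Of these 5 genes Sgk1 was called, and Txnip, Map3k6, Mt1 and Fam107a read 1.42, 1.38, 1.26 and 1.19-fold without passing. The list was made of target genes of the receptor, so its share above that of all genes was partly set by this choice. That share is no result about KO midbrain. Among the 8 called list genes with a promoter 1 held the element (12.5%), as did 1 of the 28 called genes with a promoter that rose (3.57%). The full palindrome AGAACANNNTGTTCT, which contains the shorter letters, occurred in 3 of these 27025 genes (0.0111%), and Sgk1 was the one among the called genes. Of the 31 genes with a promoter that fell, 0 held either form in this window.

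Single members of the clock and immediate early lists were lower in KO midbrain. Dbp, the clock output factor that binds D-boxes, read 7.33, 7.59 and 7.56 in KO and 8.30, 8.23 and 8.33 in WT mice, -1.73-fold with limma adjusted p = 4.00e-06. It was the 1 call among the brightest probe sets of 20 clock genes, whose median was -0.06, and 6 of the 20 had an unadjusted p under 0.05. A second probe set of Rora, a nuclear receptor of the clock, fell by -1.37-fold (limma adjusted p = 0.0323), while its brightest did not pass at -1.29-fold. Npas4, a transcription factor that neuronal activity induces, read 3.48, 3.38 and 3.62 in KO and 4.31, 4.84 and 4.86 in WT mice, -2.27-fold with limma adjusted p = 0.00994. It was likewise the 1 call among 19 immediate early genes, of which 13 were lower in KO. The mean of that list was 5.64 to 5.65 on the KO arrays and 5.69, 5.97 and 6.12 on the WT arrays, so that WT 1 lay close to the KO mice. Npas4 lost its call without WT 2, WT 3, KO 122970 or KO 122972. A second probe set of Jun fell by -1.41-fold, while the brightest read 7.32, 7.45 and 7.19 in KO and 7.67, 7.72 and 8.09 in WT mice and did not pass.

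In the stress granule list 1 of 34 genes changed, Caprin1, the partner of G3BP1, which read 10.06, 10.04 and 10.14 in KO and 9.82, 9.80 and 9.79 in WT mice. The rise of 1.21-fold (limma adjusted p = 0.0337) was among the smallest called, and was lost with the 6 arrays fitted alone (limma adjusted p = 0.108), with the 12 midbrain arrays alone (limma adjusted p = 0.0777) and without any 1 of the 6 arrays. The other probe sets of Caprin1 read 1.05 to 1.33-fold and did not pass. By their brightest probe sets, no call was made among 29 genes of P-bodies and mRNA decay, 14 genes that bind AU-rich elements, 22 splicing regulators or 13 tRNA splicing and modification genes, where 3, 2, 2 and 0 had an unadjusted p under 0.05 in limma. The called probe set of the P-body gene Dcp1b described above was not its brightest. The integrated stress response list had 0 calls of 17 with 3 at that level, although Atf4 read 9.94, 9.92 and 9.87 in KO and 9.63, 9.52 and 9.58 in WT mice without overlap. The thyroid hormone list had 1 call of 8, Dio2, the deiodinase that activates thyroid hormone in glia, which read 8.05, 7.99 and 7.99 in KO and 7.39, 7.44 and 7.38 in WT mice (1.52-fold, limma adjusted p = 0.0286). Ucn, which encodes the stress peptide urocortin, read 4.12, 4.22 and 4.14 in KO and 4.75, 4.75 and 5.17 in WT mice, -1.66-fold with limma adjusted p = 0.0426. Dio2 and Ucn lost their calls without any 1 of the 6 arrays, and Ucn also with the 12 midbrain arrays alone (limma adjusted p = 0.125) and after repeated quantile normalization (limma adjusted p = 0.0849).

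From a table of genes that the study singled out from these samples, 21 probe sets of 17 genes were examined, of which 6 rose and 2 fell in midbrain at 3 months. As that table was chosen on these libraries, the count is not independent evidence of its direction. The study called changes by a moderated F-statistic with a decision for each comparison, a rule unlike the threshold used here. Nested F decisions over the 8 comparisons called 547 probe sets in midbrain at 3 months, in place of 109. A listed probe set that did not pass here may thus have passed in the study. The 6 that rose stood for Cdkn1a, Plin4, Mfsd2a, Nde1 and Dcp1b, and exon 4 of Tia1 and Bid were those that fell. Dcp1b, a decapping factor, read 4.90, 5.12 and 5.05 in KO and 4.35, 4.11 and 4.16 in WT mice on the listed probe set, 1.76-fold with limma adjusted p = 0.0123. Of the 13 that did not pass, 11 did not overlap between genotypes, against 22.4% of all probe sets. That count is bound to the same choice of the table and is not independent evidence either. Among the 11, Ccnf, a cyclin F gene, read 1.56-fold, Tbc1d24, a Rab regulator of synaptic vesicles, 1.48-fold and 1.85-fold, and Tprkb, a subunit of the complex that modifies tRNA, 1.26-fold. Brighter probe sets of Tprkb, which that table leaves out, read 1.02-fold and -1.06-fold, with overlap. The probe set listed for Pnpla2, which encodes the adipose triglyceride lipase, has no symbol in the annotation used here and is named by that table, at 1.24-fold.

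The mice of 6 months were separate samples, and 64 probe sets (0.142%) were called there. Of the 109 probe sets called at 3 months 25 were called in the same direction at 6 months, 14 higher and 11 lower, and 0 in the opposite one. Cdkn1a (3.40-fold), Plin4 (2.77-fold), Mfsd2a (1.74-fold), Sult1a1 (1.62-fold), Dio2 (1.65-fold), Erc1 (-3.79-fold), Ninj2 (-3.05-fold), Bid (-1.69-fold) and Dbp (-1.50-fold) were among them, as was exon 4 of Tia1 (-4.11-fold). In contrast, 55 of the 109 differed by less than 0.25 on the log2 scale at 6 months. The difference between the ages was itself called for 20 probe sets (0.0444%) and had an unadjusted p under 0.05 for 2155. Of these 20, 7 were called at 3 months.

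**Figure D4:**
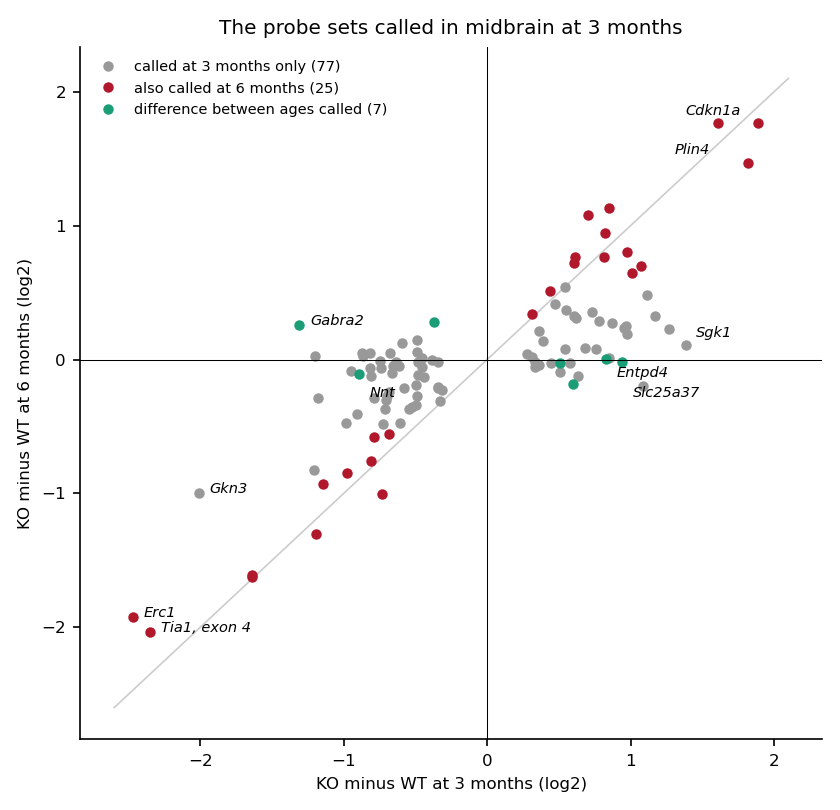
Log2 difference, KO minus WT, at 6 months against that at 3 months for the 109 probe sets called at 3 months. The diagonal marks equal values. The 25 red probe sets were also called at 6 months, and the 7 green ones had a called difference between the ages, with Gabra2 at -1.31 and 0.26.

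Those 7 probe sets shared a pattern in which the WT mice of 3 months were the group apart. Slc25a37 encodes the mitochondrial iron importer mitoferrin. Its brightest probe set read 9.39, 9.52 and 9.42 in KO and 8.51, 8.58 and 8.41 in WT mice at 3 months. On it, the 6 mice of 6 months read 9.46 to 9.52 in both genotypes. The difference between the ages was 0.96 (SE 0.10, limma adjusted p = 1.34e-06). Another probe set of Slc25a37 was 1.81-fold higher in KO at 3 months (limma adjusted p = 0.0121). Its remaining probe set, with means of 6.85 in KO and 7.11 in WT mice, went the other way at -1.19-fold. That difference did not pass (limma adjusted p = 0.785), so the rise was not seen by every probe set of the gene. Nnt, the nicotinamide nucleotide transhydrogenase of the inner mitochondrial membrane, read 7.21, 7.26 and 7.30 in KO and 8.18, 8.15 and 8.11 in WT mice at 3 months. At 6 months Nnt read 7.04, 6.92 and 7.06 in KO and 7.09, 7.27 and 6.98 in WT mice, with overlap (limma adjusted p of the difference between the ages 0.00971). As background, the substrain C57BL/6J carries a deletion within Nnt that other C57BL/6 substrains lack, and its Gabra2 expression is lower than theirs. Gabra2, a subunit of the GABA-A receptor, read 5.49, 5.31 and 5.38 in KO and 6.51, 6.74 and 6.85 in WT mice at 3 months, and 4.93, 5.47 and 5.48 in KO and 5.06, 5.11 and 4.94 in WT mice at 6 months (limma adjusted p of the difference between the ages 0.0276). Entpd4, a Golgi nucleotidase, was 1.78-fold higher in KO at 3 months and 1.01-fold at 6 months, where WT mice read 8.26, 8.27 and 8.32 after 7.41, 7.30 and 7.47 at 3 months. The part that the substrain of the WT mice may have in these values was not tested.

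The same pattern held for most of the called probe sets. In 73 of the 109, the 3 WT arrays of 3 months lay outside the range of the other 9 midbrain arrays, KO mice of both ages and WT mice of 6 months alike. This was so for 6.02% of all probe sets. In 8 others, counted apart from the 73 and from the 40 below, the KO arrays of 3 months lay outside the other 9. Counted likewise, this was so for 1.39% of all probe sets. Some of the 73, such as a probe set of Khdrbs1, had this property too and are not among the 8. All 6 KO arrays lay outside all 6 WT arrays, on the same side, in 40 (against 1.16% of all probe sets). These 40 included Tia1, Ninj2, 3110021A11Rik, Tedc2 and Dio2, while Plin4, Nnt, Gabra2, Slc25a37, Entpd4, Snrpd1, Mkrn1 and Sgk1 belonged to the 73 alone and Erc1 and Cdkn1a to both. Mkrn1 of chromosome 6 read 7.52, 7.41 and 7.53 in KO and 8.12, 8.22 and 8.08 in WT mice at 3 months, and 7.28 to 7.52 on the 6 arrays of 6 months. Sgk1 read 10.79, 10.22 and 10.59 in KO and 10.71, 10.20 and 10.37 in WT mice at 6 months, so that every WT array of 3 months lay below every array of 6 months. The called probe sets were chosen on the contrast with these WT arrays, so the counts are a description and no test.

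Cerebellum and spinal cord of 3 months came under the same mouse numbers, so their values stand beside those of midbrain without a count of agreement. The median of the glucocorticoid list was 0.54 in cerebellum and 0.66 in spinal cord on the log2 scale. In midbrain of the separate mice of 6 months it was 0.32, with 5 of the 27 genes called, against 0.51 and 9 genes at 3 months. All of those 9 but Errfi1 belonged to the 73 probe sets in which the WT mice of 3 months stood apart. In cerebellum and spinal cord of 3 months, Sgk1 differed by 1.03 and 1.60, Plin4 by 1.39 and 1.81, Cdkn1a by 1.62 and 0.87, Nnt by -1.14 and -1.19, and Slc25a37 by 1.00 and 0.94. The difference between midbrain and the mean of both other tissues was called for 1 probe set (0.00222%), and 1465 had an unadjusted p under 0.05. That probe set read Slc7a3, a transporter of arginine and lysine. It did not differ in midbrain, where KO and WT mice differed by 0.02, but read 6.33, 6.49 and 6.37 in KO and 3.89, 3.78 and 4.0 in WT cerebellum. WT cerebellum of 6 months read 6.47 to 6.5 and KO cerebellum of that age 6.28 to 6.33, so here too the WT mice of 3 months were the group apart. Bpifa1 (-1.77-fold) and 2900052N01Rik (2.12-fold) differed in midbrain and by less than 0.2 in cerebellum and spinal cord, without a called difference between tissues. Both were dim in those tissues, at 2.46 to 2.74 for Bpifa1 and 2.25 to 3.15 for 2900052N01Rik, so that a difference could hardly have been seen. Bpifa1 was dim in midbrain too, at 2.65 to 2.96 in KO and 3.37 to 3.81 in WT mice. The brightest probe set of 2900052N01Rik read 1.39-fold in midbrain and did not pass (limma adjusted p = 0.486). The called probe sets of both genes belonged to the 73.

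No call was made among 16 dopaminergic genes, with 1 at an unadjusted p under 0.05 in limma and a median of 0.12. Among 12 pan-neuronal, 11 astrocyte and 8 GABAergic genes there were 0 calls and 0 at that level. Opalin, a membrane protein of myelinating oligodendrocytes, was the 1 call of 13 oligodendrocyte genes and read 8.04, 8.0 and 8.21 in KO and 8.77, 8.56 and 8.75 in WT mice (-1.53-fold, limma adjusted p = 0.0107), a call that held in 2 of the 6 fits with 1 array left out. Of the 13, 9 were lower and 4 higher in KO with a median of -0.07, and 2 had an unadjusted p under 0.05. All 11 microglial genes were lower in KO with a median of -0.18, none was called and 2 had an unadjusted p under 0.05. P2ry12, a purinergic receptor of resting microglia, had the largest difference at -1.34-fold, with 7.0, 6.67 and 6.94 in KO and 7.23, 7.44 and 7.22 in WT mice. The mean of the microglial list was 6.15 to 6.27 in KO and 6.40 to 6.45 in WT mice, so the groups did not overlap.

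Regional markers differed between arrays. All 9 choroid plexus genes were higher in KO with a median of 0.77, and none was called. Their mean was 6.84 in KO 122973, against 4.36 and 4.39 in the other KO and 4.18 to 4.36 in WT mice, so the difference came with 1 array. Without KO 122973, 60 probe sets were called in place of 109, and 57 of these were shared. The fall was not particular to this array, as leaving out any other array gave 53 to 64 calls. All 6 thalamic genes were lower in KO, with a median of -0.21 and 2 at an unadjusted p under 0.05, and their mean was 7.74, 7.87 and 8.12 in KO and 8.24, 7.99 and 8.15 in WT mice. Hypothalamic and pituitary genes had a mean of 6.25 to 7.87 in KO and 6.45 to 7.46 in WT mice. Among these Avp, the neuropeptide vasopressin, read 9.99, 9.83 and 10.08 in KO and 9.16, 9.15 and 9.31 in WT mice, 1.69-fold with limma adjusted p = 0.0739. The part that these regional signals have in the calls was not tested.

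**Figure D5:**
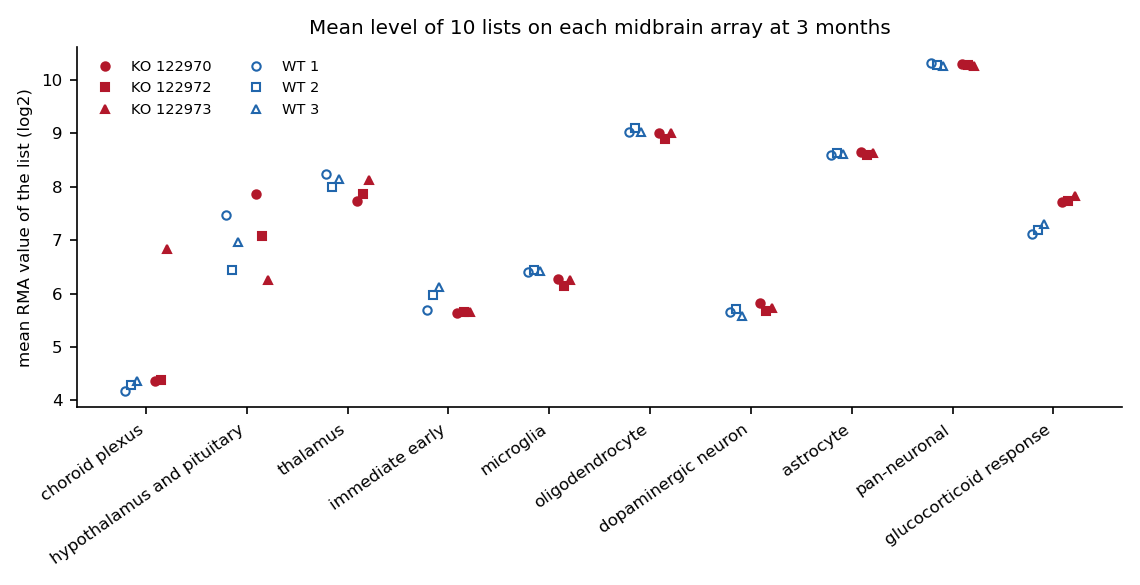
Mean RMA value (log2) of 10 gene lists on each midbrain array at 3 months, with KO mice as filled red and WT mice as open blue symbols. The choroid plexus list stands out in KO 122973 at 6.84, pituitary and thalamic lists vary within both genotypes, and the glucocorticoid list separates the genotypes at 7.72 to 7.84 against 7.12 to 7.31.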

How the data were processed

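The authors hybridised biotin-labelled RNA to GeneChip HT MG-430 PM array plates and deposited log2 values after robust multi-array averaging (RMA, R 2.14.0 per the labels), 1 array per mouse and tissue. Background correction, quantile normalization and summary by probe set were thus done before deposit, which pulls arrays to 1 distribution and compresses dim differences. The study's methods describe these steps for every chip without saying whether all tissues formed 1 set. Microarrays give no read depth, and 3 arrays a group limit the precision.

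Samples were grouped by the labels. Of 45141 probe sets 104 controls were left out. The 45037 others were fitted with 1 mean for each of 16 groups over all 48 arrays (limma 3.58.1, lmFit and eBayes, R 4.3.3, residual df 32), and p-values were Benjamini-Hochberg adjusted over all probe sets, with a threshold of 0.05. The script was tested on simulated data. Genes were named by the platform annotation (28898 probe sets with 1 symbol), placed by RefSeq GRCm38.p6, and a list gene was read by its brightest probe set. Named in the text were all Tia1 probe sets, the 15 largest calls in each direction, called list members with the 4 largest members of a list described, called genes of chromosomes 6 and 17, genes of a table in the study, the 5 largest differences in each direction between ages or tissues, and markers. Hsd11b1, Ucn, Snrpd1, Fkbp5, Bpifa1 and the genes with a response element were named after their values were seen. Members and lists were chosen with earlier results of these data known. Mouse numbers recur at both ages and were treated as separate mice at each age. Across tissues the mouse number marks 1 animal, and same-mouse residuals correlated at a median of 0.0341 (18 pairs) against -0.0171 for other mice (36 pairs). Alternatives were other sets of arrays, leaving out arrays or chromosome 6, a minimum mean of 5, repeated quantile normalization, a trended robust prior, the mouse as a block, and stricter thresholds.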

Additional observations from a re-analysis of the deposited data

Results flagged for a closer look

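Results below are those for which the knockout effect in midbrain differed between 3 and 6 months, or between midbrain and the other nervous tissues, by a test of the difference itself in limma. Values are differences of log2 effects, 3 months minus 6 months. The difference was positive for Slc25a37 (0.96), Entpd4 (0.82) and Snrpd1 (0.54), and for Mab21l1 (0.78), where KO exceeded WT mice at 3 months. It was positive for Meg3 (1.49), Lingo2 (0.87) and both probe sets of Ide (0.52 and 0.45), where the WT mice of 6 months read 10.8 to 10.97 for Meg3 against 9.24 to 9.37 in KO mice of that age. It was negative for Gabra2 (-1.57), Nnt (-0.78), Slc19a1 (-0.65), Stap2 (-0.86) and Tmem181b-ps (-0.84). The 3 probe sets of Wdfy1 gave -1.32, -1.34 and -1.41, with WT mice of 6 months at 4.68 to 5.27 in the first of these against 6.52 to 6.84 in KO mice. Probe sets without a symbol gave -3.24, -0.56, -1.0 and -1.01. Between tissues, midbrain minus the mean of cerebellum and spinal cord gave -1.23 for Slc7a3, whose effect was 2.51 in cerebellum.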

How the results depend on the processing

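Tia1 exon 4 was called under every alternative run, at -2.41 to -2.27 on the log2 scale with 1 array left out. Results for single probe sets were counted once under each alternative in which they were fitted, so that 1 result enters many times. Of these repeated counts, 925 kept the direction and side of the threshold, 357 kept the direction and lost the call, and 0 reversed. The count of 109 became 215 with the 6 arrays fitted alone (81 shared), 275 with the 12 midbrain arrays (91 shared), 327 without liver (109 shared), 547 with nested F decisions over the 8 comparisons, and 53 at an adjusted p under 0.01. It was 53 to 64 with 1 array left out, a fall of over 1.5 times without each of the 6. The 20 differences between the ages became 10 with the 12 midbrain arrays, 40 without liver, 9 at an adjusted p under 0.01, and 6 to 17 with 1 array left out, the lowest without KO 122970. The 1 difference between tissues became 5 without liver and ranged over 1 to 2 with 1 array left out, the highest without WT 2. Calls over all lists were 19, became 29 without liver, and ranged over 9 to 12 with 1 array left out, where each of the 6 arrays lowered them by over 1.5 times. Those of the glucocorticoid list were 9, and ranged over 4 to 6 with 1 array left out. The causes were not tested, and leaving out an array also leaves fewer samples in its group. With the mouse as a replicate block, which pairs the tissues of an animal, 113 probe sets were called, the 109 among them. A minimum mean of 5 gave 103 calls and turned the split to 58 higher and 45 lower, as repeated quantile normalization did with 60 and 51. Dim signal limits 33 of the 109 calls, whose mean lay below 5.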
